A study of Mus musculus with 7 samples.

Results

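The fetal liver macrophage genes are 33 mouse genes expressed by the resident macrophages of the fetal liver, among 39017 genes counted in RNA of the whole organ at stage E12.5. They were chosen by name from the known biology of these cells, for their roles in growth factor response, adhesion, complement, scavenging, uptake of dying cells, Fc signalling, lysosomal digestion and transcription, and all 33 were found in the count tables. Of these, 31 passed a filter on low counts that 15800 genes passed. Csf1r and Adgre1, which are used as markers of macrophages in the mouse, were read in all 7 libraries.

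Fetal liver macrophages arise from yolk sac and early fetal progenitors and are the forerunners of the Kupffer cells of the adult liver. In the fetal liver they sit at the centre of erythroblastic islands, where they bind maturing erythroblasts, engulf the nuclei that these cells extrude and digest the DNA. Their survival depends on the receptor Csf1r, the lineage is set by the transcription factor PU.1, and MAF family factors, SPIC and the liver X receptor NR1H3 shape tissue macrophages further.

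TAF10 is a subunit of the general transcription factor TFIID and of the SAGA coactivator complex. The study deleted the Taf10 gene with a Cre recombinase named EpoCre in the sample names, which the series describes as driven by the erythropoietin receptor gene and therefore directed to red cell precursors. Livers of C57BL/6 embryos of 3 genotypes were compared. The TAF10KO group had 2 livers named lox/lox with EpoCre, although the series text describes the knockout as carrying 1 floxed and 1 deleted allele. The TAF10HET group had 3 livers with EpoCre, 1 named lox/wt and the other two wt/ko. The WT group had 2 livers named lox/lox without Cre, so that its Taf10 alleles were floxed too. RNA came from a single-cell suspension of each liver. In such RNA, fewer macrophages and less RNA per macrophage cannot be told apart, and RNA of other cells that express a gene adds to its level. Each sample name carries 1 of 2 date codes whose meaning is not stated. The first marks replicate 1 of each group, and the second marks replicate 2 of each group and TAF10HET replicate 3, so the heterozygous allele type changes with the date code.

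Gene counts summed to 33421125 and 43401474 in the TAF10KO libraries, to 18008391 to 27280055 in the TAF10HET libraries, and to 25248620 and 22821489 in the WT libraries. Levels below are in CPM, the reads of a gene scaled to the library's gene counts after TMM scaling. Taf10 itself stood at 37.8 and 43.8 CPM in the TAF10KO libraries, at 63.0 to 78.0 CPM in the TAF10HET libraries and at 71.9 and 96.4 CPM in the WT libraries. The TAF10KO libraries held the lowest Taf10 levels, which is the direction their label gives. Libraries that shared a date code deviated together, as the processing account describes, so genotype differences were fitted with the date code as a block. A gene is called when the Benjamini-Hochberg adjusted p of edgeR's quasi-likelihood test over all 15800 genes is under 0.05.

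The genes varied widely in level. Per kilobase of exon, the highest mean over the 7 libraries was that of Lyz2, which encodes lysozyme, at 88.1 CPM per kilobase, followed by Tyrobp at 27.8, C1qb at 21.5, Lgmn at 17.3 and Fcer1g at 16.1 CPM per kilobase. Reads of Lyz2 can be split with its near-identical neighbour Lyz1, and Lyz2 and Fcer1g are also used by other myeloid cells. In plain CPM, 15 of the 33 genes were at 10 CPM or more in every library. The lowest levels were those of Vsig4 and Cd163. Vsig4, the complement receptor CRIg, had 0 reads in both TAF10KO libraries, 1 read in each TAF10HET library and 1 and 2 reads in the WT libraries. A count of 0 allows up to 0.0814 and 0.0689 CPM in TAF10KO replicates 1 and 2. Cd163, the haemoglobin scavenger receptor, had 0 to 7 reads in any library. These 2 genes did not pass the filter and were not tested. Clec4f, a lectin receptor of Kupffer cells, stayed at or under 2.94 CPM. Summed over all 33 genes, the level was 679.3 and 548.9 CPM in the TAF10KO libraries, 555.5 to 736.9 CPM in the TAF10HET libraries, and 777.7 and 528.1 CPM in the WT libraries, so the groups overlapped.

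**Figure D1:**
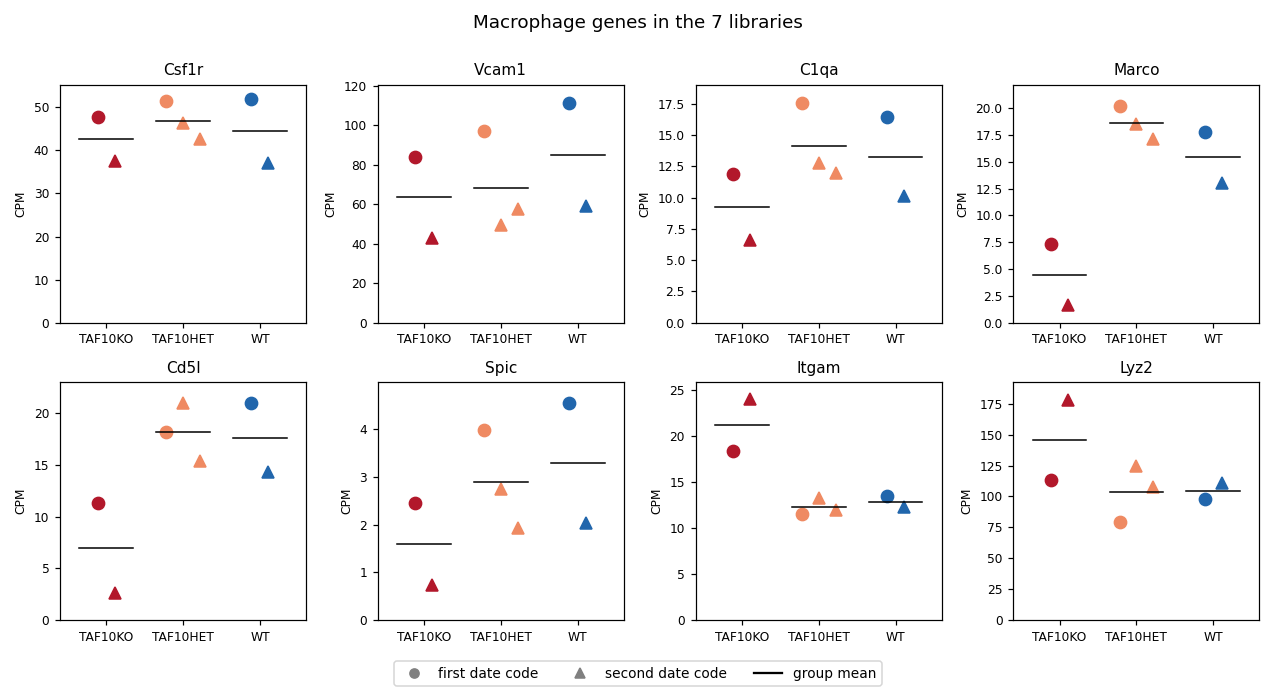
Level in CPM of 8 of the macrophage genes in the 7 libraries, by genotype, with the group mean as a line; circles stand for the first date code and triangles for the second. Marco and Cd5l are lowest in the TAF10KO libraries, at 7.33 and 1.63 CPM and at 11.3 and 2.64 CPM, Itgam is highest there, and Csf1r lies between 37.1 and 51.9 CPM in all 7.

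Against WT, Csf1r was near equal in TAF10KO livers, and Adgre1, most scavenger receptors and the complement chains were lower. Among the higher genes were 2 shared with other myeloid cells, Itgam and Lyz2, and the nuclease gene Dnase2a. None of the 31 genes passed the adjusted threshold. With edgeR, 0 were called higher against a background of 0.481% of all genes called higher, and 0 lower against 0.127% called lower. At an unadjusted p under 0.05 there were 11 lower and 3 higher genes, where 17.9% of all genes passed in either direction. DESeq2 called 2 lower (Vcam1 and Marco), where it called 1.96% of all genes lower, and 1 higher (Itgam), where it called 2.29% higher. The median log2 difference over the 31 genes was -0.25, beside 0.03 over all genes, and 23 of the 31 genes were below 0, beside 45.8% of all genes.

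Against TAF10HET, the pattern had the same direction and 2 of the 31 genes passed. Itgam rose and C1qa fell, against 1.15% of all genes called higher and 0.456% called lower. The median over the 31 genes was -0.36, beside 0.00 over all genes, and 26 of 31 were below 0, beside 49.5% of all genes. Both comparisons use the same TAF10KO libraries. TAF10HET livers did not separate from WT livers. With edgeR 0 of 31 genes were called higher, where 0.00633% of all genes were, and 0 lower, where 0% were. At an unadjusted p under 0.05 only Axl was higher and 0 genes were lower, where 3.35% of all genes passed in either direction, and DESeq2 called 0. The median over the 31 genes was 0.10 for TAF10HET against WT, beside 0.01 over all genes.

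Without the date block, 0 of all genes were called in any of the 3 genotype comparisons, the 31 macrophage genes included. At an unadjusted p under 0.05 there were then 1 lower and 2 higher genes in TAF10KO against WT, where 4.61% of all genes passed. Against TAF10HET there were likewise 1 lower and 2 higher genes, where 5.41% of all genes passed. Leaving out TAF10KO replicate 1 gave 10 lower and 2 higher calls against WT, where 3.47% of all genes were then called lower and 4.43% higher. Leaving out TAF10KO replicate 2 gave 1 lower call, Marco, and 0 higher, where 1.44% of all genes were then called lower and 1.81% higher.

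Csf1r, the receptor for the growth factors CSF1 and IL34 on which macrophages depend, differed little between genotypes. It stood at 47.8 and 37.5 CPM in the TAF10KO libraries, at 51.5, 46.3 and 42.7 CPM in the TAF10HET libraries, and at 51.9 and 37.1 CPM in the WT libraries. Between TAF10KO and WT livers the log2 difference was -0.05 (SE 0.0967, adjusted p = 0.804). The groups overlapped throughout, and in each group replicate 1 was the highest. Csf1r shares 873 of its 5774 exon bases with the antisense gene Hmgxb3. The strand setting of the counting is not given. Whether reads there were counted for Csf1r or set aside as ambiguous is therefore not known. Cd68, an endosomal and lysosomal glycoprotein, was at 10.6 and 7.62 CPM in TAF10KO livers, at 8.79 to 11.2 CPM in TAF10HET livers, and at 9.58 and 7.51 CPM in WT livers, again with overlap (log2 difference of TAF10KO from WT 0.08, adjusted p = 0.863).

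Adgre1, the adhesion receptor used as the standard surface marker of mouse macrophages, was lower. It had 16.5 and 9.85 CPM in the TAF10KO libraries, 20.6, 19.0 and 15.5 CPM in the TAF10HET libraries, and 23.3 and 15.2 CPM in the WT libraries. TAF10KO replicate 2 was below every other library, while TAF10KO replicate 1 lay within the range of the others. The log2 difference from WT was -0.56 (SE 0.161, adjusted p = 0.153). Cx3cr1, the fractalkine receptor, had 12.65 and 11.4 CPM in TAF10KO livers, 10.1 to 16.4 CPM in TAF10HET livers, and 16.75 and 8.95 CPM in WT livers, and its log2 difference from WT was -0.04 (adjusted p = 0.938). Aif1, the actin-binding protein IBA1, had 2.52 and 2.11 CPM in TAF10KO livers, 2.23 to 4.14 CPM in TAF10HET livers, and 4.44 and 2.23 CPM in WT livers (log2 difference from WT -0.48, adjusted p = 0.446).

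Itgam, the integrin chain CD11b of macrophages, monocytes and neutrophils, was the member with the clearest rise. Its gene is ENSMUSG00000030786 on chromosome 7, 128062640 to 128118491 in GRCm38. It had 18.4 and 24.0 CPM in the TAF10KO libraries, against 11.5, 13.25 and 12.01 CPM in the TAF10HET libraries and 13.4 and 12.2 CPM in the WT libraries. Both TAF10KO libraries were above all 5 others, whose values spanned less than 2 CPM. Itgam averaged 21.2 ± 3.97 CPM in TAF10KO livers (SD, n = 2), 12.3 ± 0.888 CPM in TAF10HET livers (n = 3) and 12.8 ± 0.846 CPM in WT livers (n = 2). The log2 difference was 0.80 from TAF10HET (SE 0.131, adjusted p = 0.0351) and 0.71 from WT (SE 0.145, adjusted p = 0.0821). The call against TAF10HET was lost without the date block (adjusted p = 0.624), in a fit of the groups compared alone (0.0925), and on leaving out WT library 1 (0.0907) or 2 (0.0888), TAF10HET library 2 (0.113) or 3 (0.17), or TAF10KO library 2 (0.073). The direction stayed in all 16 alternatives.

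Lyz2 was also higher, without passing the threshold. It stood at 113.3 and 178.3 CPM in the TAF10KO libraries, at 79.7, 124.4 and 107.7 CPM in the TAF10HET libraries, and at 97.6 and 110.5 CPM in the WT libraries. Each TAF10KO library exceeded the other libraries of its own date code, but TAF10KO replicate 1 was below TAF10HET replicate 2. The log2 difference was 0.45 from WT (SE 0.129, adjusted p = 0.153) and 0.55 from TAF10HET (SE 0.117, adjusted p = 0.0736). Of 12 markers of neutrophils and monocytes, edgeR called 0 in either direction in TAF10KO against WT. Over all genes 0.481% were called higher and 0.127% lower. At an unadjusted p under 0.05, 7 markers were higher and 0 lower, where 17.9% of all genes passed in either direction. DESeq2 called 2 markers higher, where it called 2.29% of all genes higher. All 12 were above 0, beside 54.2% of all genes, with a median log2 difference of 0.68. Their summed level was 499 and 808.5 CPM in the TAF10KO libraries, 331 to 547.9 CPM in the TAF10HET libraries, and 398.1 and 490.5 CPM in the WT libraries. The part of these cells in the Itgam and Lyz2 values was not tested. Against TAF10HET, where 1.15% of all genes were called higher and 0.456% lower, 2 of the 12 markers rose and 0 fell. Those that rose were the granule enzymes Mpo (log2 difference 0.80, adjusted p = 0.0162) and Prtn3 (0.74, adjusted p = 0.0423). Both calls were lost without the date block, in a fit of the groups compared alone, without TAF10HET replicate 3 and without either WT library, and that of Prtn3 also without TAF10HET replicate 2 or TAF10KO replicate 2 and without robust moderation, with adjusted p up to 0.994 and 0.92 over all alternatives that lost them.

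The members of the erythroblastic island split. Vcam1, the adhesion molecule through which island macrophages hold erythroblasts, had 83.8 and 42.9 CPM in the TAF10KO libraries, 97.0, 49.2 and 57.6 CPM in the TAF10HET libraries, and 111.3 and 58.8 CPM in the WT libraries. Within each date code the TAF10KO library was the lowest, and the log2 difference from WT was -0.43 (SE 0.0919, adjusted p = 0.0893). Vcam1 is also made by endothelial and stromal cells. Dnase2a, the lysosomal nuclease that digests the DNA of engulfed nuclei, was higher in both TAF10KO libraries than in all 5 others, at 22.1 and 28.5 CPM, against 16.1, 21.5 and 16.9 CPM in the TAF10HET libraries and 18.2 and 17.4 CPM in the WT libraries. Its log2 difference from WT was 0.49 (SE 0.152, adjusted p = 0.175), and 1616 of its 5389 exon bases overlap the antisense gene Mast1. Whether reads there were counted for Dnase2a or set aside as ambiguous is not known.

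The chains of the complement component C1q were lower together. C1qa, C1qb and C1qc each encode 1 chain of the protein that opens the classical pathway and that macrophages are the main cells to make. The genes lie side by side on chromosome 4, C1qb at 136880129 to 136886187, C1qc at 136889804 to 136893065 and C1qa at 136895917 to 136898803 in GRCm38. C1qa had 11.9 and 6.63 CPM in the TAF10KO libraries, 17.6, 12.8 and 11.96 CPM in the TAF10HET libraries, and 16.4 and 10.15 CPM in the WT libraries. C1qb had 21.9 and 16.1 CPM in the TAF10KO libraries, 28.9, 26.5 and 22.3 CPM in the TAF10HET libraries, and 27.3 and 20.45 CPM in the WT libraries. C1qc had 18.3 and 10.5 CPM in the TAF10KO libraries, 22.2, 19.9 and 18.0 CPM in the TAF10HET libraries, and 23.5 and 15.1 CPM in the WT libraries. For all 3 chains TAF10KO replicate 2 was the lowest library, and on each date code the TAF10KO library was below every other.

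C1qa fell in TAF10KO against TAF10HET livers, by 0.75 on the log2 scale (SE 0.124, adjusted p = 0.0353), and its log2 difference from WT was -0.54 (SE 0.132, adjusted p = 0.116). The other two chains did not pass, with log2 differences from TAF10HET of -0.52 for C1qb (adjusted p = 0.0738) and -0.61 for C1qc (adjusted p = 0.100), and from WT of -0.33 (adjusted p = 0.216) and -0.44 (adjusted p = 0.218). The C1qa call was lost without the date block (adjusted p = 0.98), in a fit of the groups compared alone (0.134), and on leaving out WT library 1 (0.126) or 2 (0.133), or TAF10HET library 2 (0.128) or 3 (0.154). Its log2 difference lay between -0.87 and -0.61 in all 16 alternatives.

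The widest differences were among the scavenger receptors. Marco binds bacteria and modified lipoproteins on tissue macrophages, and it is encoded by ENSMUSG00000026390 on chromosome 1, 120474538 to 120505024 in GRCm38. It stood at 7.33 and 1.63 CPM in the TAF10KO libraries (270 and 71 reads), against 20.2, 18.5 and 17.1 CPM in the TAF10HET libraries and 17.8 and 13.03 CPM in the WT libraries. Both TAF10KO libraries were below all 5 others, and they also stood apart from each other. Marco averaged 4.48 ± 4.03 CPM in TAF10KO livers (SD, n = 2), 18.6 ± 1.55 CPM in TAF10HET livers (n = 3) and 15.4 ± 3.38 CPM in WT livers (n = 2). The log2 difference was -1.95 from WT (SE 0.469, adjusted p = 0.137) and -2.39 from TAF10HET (SE 0.464, adjusted p = 0.0829). The size rests on TAF10KO replicate 2: with that library left out the difference from WT was -1.24, and with the other TAF10KO library left out it was -3.07. Each of these fits holds 1 TAF10KO library, so it carries no spread between knockout livers. Among alternatives that kept both TAF10KO libraries, Marco was called against WT by DESeq2 and with no filter. Against TAF10HET it was called by these and with a filter at 5 CPM.

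Cd5l, a protein that macrophages secrete and that protects them from apoptosis, behaved like Marco. Its gene is ENSMUSG00000015854 on chromosome 3, 87357881 to 87371073 in GRCm38. Cd5l had 11.3 and 2.64 CPM in the TAF10KO libraries, against 18.2, 21.02 and 15.4 CPM in the TAF10HET libraries and 21.01 and 14.3 CPM in the WT libraries, so both TAF10KO libraries were again the lowest. The log2 difference from WT was -1.50 (SE 0.512, adjusted p = 0.231). Leaving out TAF10KO replicate 2 gave -0.78, and leaving out the other TAF10KO library gave -2.61, again with 1 TAF10KO library in each fit. Over all 31 genes, Marco and Cd5l were the 2 that were lower in both TAF10KO libraries than in the 5 others, where 7.18% of all genes were. Itgam and Dnase2a were the 2 that were higher, where 7.48% of all genes were. Counts of that size are near the background, so a lack of overlap alone sets none of the 4 apart.

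Spic, a transcription factor that iron-recycling macrophages need, and Fcna, the lectin ficolin A, were lowest in the TAF10KO library on each date code. The gap from WT was wider on the second. Spic had 2.44 and 0.735 CPM in the TAF10KO libraries, 3.98, 2.74 and 1.93 CPM in the TAF10HET libraries, and 4.55 and 2.04 CPM in the WT libraries. Its log2 difference from WT was -1.13 (SE 0.306, adjusted p = 0.138). Fcna had 10.5 and 3.56 CPM in the TAF10KO libraries, 11.6, 10.7 and 9.26 CPM in the TAF10HET libraries, and 14.9 and 8.90 CPM in the WT libraries, with a log2 difference from WT of -0.85 (SE 0.296, adjusted p = 0.215). For both genes TAF10KO replicate 2 was below all other libraries. TAF10KO replicate 1 was above TAF10HET replicate 3 and WT replicate 2, which are of the second date code. Of the exon bases of Fcna, 90 of 1374 overlap the antisense gene Fcnaos.

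The remaining recognition receptors gave smaller or less certain differences. Timd4, the phosphatidylserine receptor of resident macrophages, had 6.81 and 3.12 CPM in the TAF10KO libraries, 7.19, 7.92 and 6.68 CPM in the TAF10HET libraries, and 8.59 and 6.12 CPM in the WT libraries (log2 difference from WT -0.61, adjusted p = 0.292). Clec4f had 2.55 and 0.253 CPM in the TAF10KO libraries, 2.69, 2.94 and 1.64 CPM in the TAF10HET libraries, and 2.695 and 0.974 CPM in the WT libraries, resting on 11 reads in TAF10KO replicate 2 and 21 reads in WT replicate 2. In both genes TAF10KO replicate 2 was the lowest library and TAF10KO replicate 1 stood among the others. Siglec1, a sialic acid receptor of tissue macrophages, was at 5.51 and 4.71 CPM in TAF10KO livers, 4.34 to 6.34 CPM in TAF10HET livers, and 3.93 and 5.80 CPM in WT livers, with full overlap. Cd14, the lipopolysaccharide co-receptor, was at or under 0.656 CPM in every library, and Mrc1, the mannose receptor, followed the date code, as given below.

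Of the other receptors for dying cells, Mertk and Axl bind phosphatidylserine through bridging proteins. Mertk had 12.7 and 6.75 CPM in the TAF10KO libraries, 12.4, 8.73 and 8.79 CPM in the TAF10HET libraries, and 12.75 and 9.69 CPM in the WT libraries (log2 difference from WT -0.25, adjusted p = 0.436). Axl differed by -0.05 from WT (adjusted p = 0.870). Among Fc receptors and their signalling chains, Fcgr1, the high-affinity IgG receptor, was at 4.40 and 3.145 CPM in the TAF10KO libraries, 6.72, 5.29 and 4.22 CPM in the TAF10HET libraries, and 5.64 and 4.59 CPM in the WT libraries. Its log2 difference from WT was -0.45 (adjusted p = 0.256). The signalling adaptors gave no such difference. Tyrobp, the adaptor DAP12, was at 13.8 and 23.3 CPM in TAF10KO livers, 17.0 to 21.1 CPM in TAF10HET livers, and 17.4 and 18.4 CPM in WT livers, so the 2 TAF10KO libraries lay on either side of all others. Fcer1g, the common Fc receptor chain, was at 14.1 and 15.0 CPM in TAF10KO livers, 12.01 to 14.8 CPM in TAF10HET livers, and 16.7 and 11.3 CPM in WT livers. Log2 differences from WT were 0.03 for Tyrobp (adjusted p = 0.962), 0.07 for Fcer1g (adjusted p = 0.860), 0.26 for the IgG receptor Fcgr3 (adjusted p = 0.351) and -0.18 for the lipid receptor Trem2 (adjusted p = 0.801).

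The lysosomal proteases Lgmn, an asparaginyl endopeptidase, and Ctss, cathepsin S, did not share the direction of Lyz2. Lgmn had 44.0 and 23.6 CPM in the TAF10KO libraries, 48.0, 42.6 and 37.5 CPM in the TAF10HET libraries, and 50.4 and 34.8 CPM in the WT libraries, with a log2 difference from WT of -0.37 (adjusted p = 0.273). Ctss had 14.3 and 10.2 CPM in the TAF10KO libraries, 18.15, 12.59 and 12.54 CPM in the TAF10HET libraries, and 16.8 and 10.5 CPM in the WT libraries, with a log2 difference from WT of -0.14 (adjusted p = 0.551). In each the TAF10KO library was the lowest on its date code. Maf, a transcription factor of tissue macrophages, had 28.7 and 17.1 CPM in the TAF10KO libraries, 34.2, 18.9 and 18.9 CPM in the TAF10HET libraries, and 35.7 and 16.1 CPM in the WT libraries, with a log2 difference from WT of -0.13 (adjusted p = 0.607). Of the Maf exon bases, 440 of 8241 overlap the antisense gene Gm15655.

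Promoter windows are shown for 6 genes picked after the values were seen, to set genes that were lower in TAF10KO livers (Marco, Cd5l, Spic and Fcna) beside genes that were higher (Itgam and Lyz2). Each window is the 300 bases from 250 before to 50 after the RefSeq start of the gene, on the strand of the gene, in GRCm38.p6. Marco lies at chr1:120504975-120505274 (minus strand), Cd5l at chr3:87357631-87357930 (plus), Spic at chr10:88682974-88683273 (minus), Fcna at chr2:25627925-25628224 (minus), Itgam at chr7:128062390-128062689 (plus) and Lyz2 at chr10:117282223-117282522 (minus). Capitals mark the core of the PU box bound by PU.1, GAGGAA or TTCCTC, and the core of the MAF recognition element, TGCTGA or TCAGCA.
Marco: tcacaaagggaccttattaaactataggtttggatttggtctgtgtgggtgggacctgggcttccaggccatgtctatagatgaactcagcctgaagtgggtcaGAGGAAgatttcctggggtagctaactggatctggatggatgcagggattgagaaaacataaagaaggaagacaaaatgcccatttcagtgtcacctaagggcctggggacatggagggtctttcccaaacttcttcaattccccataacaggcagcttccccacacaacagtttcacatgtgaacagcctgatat
Cd5l: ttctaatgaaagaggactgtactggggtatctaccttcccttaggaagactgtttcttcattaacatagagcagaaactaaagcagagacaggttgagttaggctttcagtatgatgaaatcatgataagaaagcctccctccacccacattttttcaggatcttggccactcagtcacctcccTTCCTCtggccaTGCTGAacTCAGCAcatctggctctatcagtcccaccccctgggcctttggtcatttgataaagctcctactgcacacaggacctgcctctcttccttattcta
Spic: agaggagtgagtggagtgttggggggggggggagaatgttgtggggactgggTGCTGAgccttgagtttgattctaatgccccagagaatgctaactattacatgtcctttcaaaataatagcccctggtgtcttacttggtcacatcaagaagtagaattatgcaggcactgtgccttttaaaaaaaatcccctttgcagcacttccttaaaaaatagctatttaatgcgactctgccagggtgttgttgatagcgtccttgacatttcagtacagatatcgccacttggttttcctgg
Fcna: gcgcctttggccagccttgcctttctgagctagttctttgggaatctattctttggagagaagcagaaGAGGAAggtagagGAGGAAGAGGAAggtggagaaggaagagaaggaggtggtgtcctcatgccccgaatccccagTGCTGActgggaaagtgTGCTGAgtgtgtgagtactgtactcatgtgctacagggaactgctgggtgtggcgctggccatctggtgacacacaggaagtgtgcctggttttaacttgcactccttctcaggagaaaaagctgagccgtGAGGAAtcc
Itgam: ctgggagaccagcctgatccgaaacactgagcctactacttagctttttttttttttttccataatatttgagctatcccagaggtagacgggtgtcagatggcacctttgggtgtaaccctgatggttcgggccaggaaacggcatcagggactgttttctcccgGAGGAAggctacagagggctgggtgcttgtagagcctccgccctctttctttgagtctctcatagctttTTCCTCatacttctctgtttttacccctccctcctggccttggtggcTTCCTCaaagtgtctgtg
Lyz2: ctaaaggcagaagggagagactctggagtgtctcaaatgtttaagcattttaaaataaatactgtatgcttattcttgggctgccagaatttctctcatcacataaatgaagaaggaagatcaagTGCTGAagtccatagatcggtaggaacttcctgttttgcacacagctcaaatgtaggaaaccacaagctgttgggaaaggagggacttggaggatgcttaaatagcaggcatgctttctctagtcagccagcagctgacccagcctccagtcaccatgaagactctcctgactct

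RefSeq windows were read for 25 of the 33 genes, 27 windows in all. Windows on chromosome 18, where Csf1r and Cd14 lie, were left out of these 27 but not of the windows of all genes. The PU box core was read on either strand in 16 of the 27 windows, beside 28.3% of the 32851 windows of all genes, and the MAF core in 11 of the 27, beside 19.5% of all. Within the lower genes printed, Fcna held 4 PU box cores and 2 MAF cores, Cd5l 1 core and 2 MAF cores, Marco 1 core and Spic 1 MAF core. Within the higher genes, Itgam held 3 PU box cores and Lyz2 1 MAF core. The letters therefore did not sort the genes by direction. The TATA box letters TATAAA were in 2 of the 27 windows, beside 13.6% of all, and the erythroid GATA letters AGATAA in 0 of 27, beside 11.2% of all. Only this spelling of the GATA site was searched, on either strand. Other spellings, such as the TGATAA in the Cd5l window shown, were not counted. The motifs do not overlap each other in the windows shown, and a match is only a run of letters.

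The 31 genes were also compared inside each date code, as log2 CPM of the TAF10KO library minus the WT library. On the second date code the difference was -2.94 for Marco, -2.41 for Cd5l, -1.39 for Spic and -1.31 for Fcna. On the first it was -1.27 for Marco, -0.89 for Cd5l, -0.88 for Spic and -0.49 for Fcna. All 4 were lower on both date codes and further down on the second, with 1 library on each side. For Itgam the difference was 0.97 on the second date code and 0.45 on the first, and for Lyz2 it was 0.69 and 0.21. C1qa kept nearly the same difference, -0.61 on the second date code and -0.46 on the first, as did Vcam1, -0.45 and -0.41. Of the 31 genes, 19 were lower and 5 higher in TAF10KO than in WT on both date codes, beside 30.3% and 34.3% of all genes. The median over the 31 genes was -0.30 on the second date code and -0.32 on the first, beside 0.01 and 0.02 over all genes. TAF10KO against TAF10HET gave 20 lower and 4 higher genes on both, beside 24.7% and 27.1% of all genes, while TAF10HET against WT gave 3 lower and 8 higher, beside 24.8% and 26.5% of all genes.

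**Figure D2:**
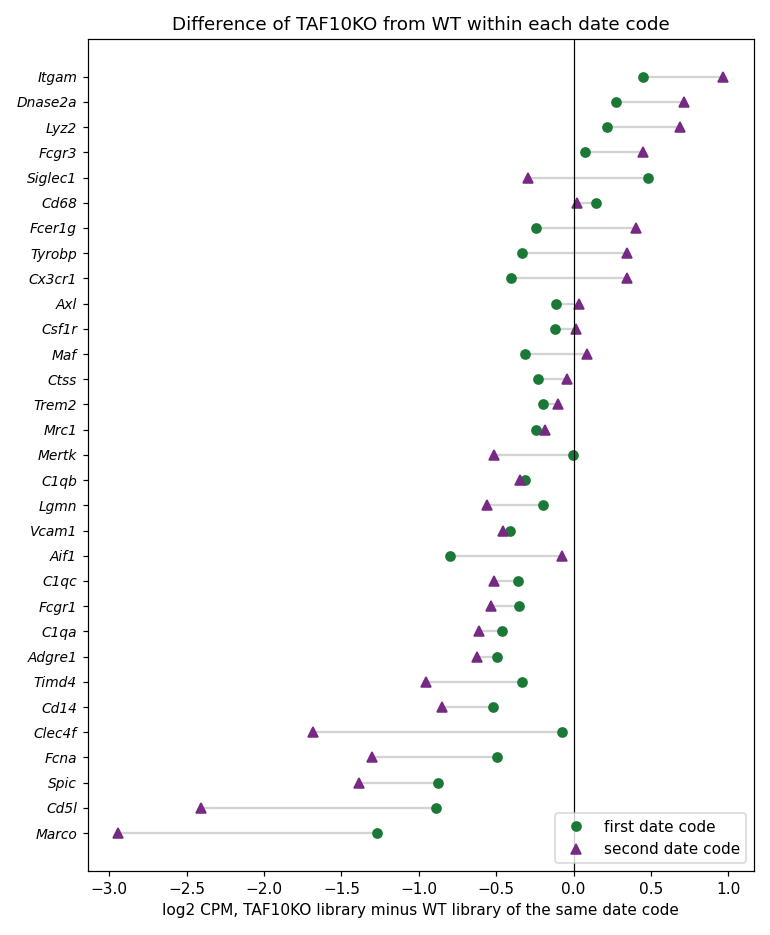
Difference in log2 CPM between the TAF10KO and the WT library of the same date code for the 31 tested genes, ordered by their mean; circles stand for the first date code and triangles for the second, 1 library on each side. Marco and Cd5l lie lowest on both date codes, Itgam, Dnase2a and Lyz2 lie above 0 on both, and Csf1r and Axl lie near 0.

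Counting the reads of each gene per 100 reads of Csf1r sets a gene against another macrophage gene of the same library. This scale was chosen after the values were seen, and the Csf1r level itself moved with the date code. The part of other cells in the Csf1r reads was not tested. Marco had 15.3 and 4.35 reads per 100 Csf1r reads in the TAF10KO libraries, against 39.3, 40.1 and 40.1 in the TAF10HET libraries and 34.3 and 35.2 in the WT libraries. Cd5l had 23.7 and 7.05 reads in the TAF10KO libraries, against 35.3, 45.4 and 36.1 in the TAF10HET libraries and 40.5 and 38.7 in the WT libraries. On this scale the 5 control libraries came close together, and both TAF10KO libraries were below them. The same held for C1qa, at 24.9 and 17.7 reads in the TAF10KO libraries, against 27.6 to 34.1 in the TAF10HET libraries and 31.7 and 27.4 in the WT libraries. C1qb had 45.9 and 42.95 reads in TAF10KO libraries, against 52.3 to 57.2 in TAF10HET and 52.6 and 55.2 in WT libraries, and C1qc had 38.3 and 28.1, against 42.1 to 43.1 and 45.3 and 40.8. Adgre1 had 34.6 and 26.3 reads in TAF10KO libraries, against 36.2 to 41.1 in TAF10HET libraries and 45.0 and 41.1 in WT libraries. Fcgr1 had 9.20 and 8.40 reads in TAF10KO libraries, against 9.88 to 13.05 in TAF10HET libraries and 10.9 and 12.4 in WT libraries. These 7 of 30 genes were lower per Csf1r read in both TAF10KO libraries than in the 5 others, where 1.42% of all genes were. In plain CPM, 2 of 31 genes were, where 7.18% of all genes were. The 1.42% is not a like background, because Csf1r fell with the date code as other macrophage genes did. Per Csf1r read, Itgam alone was higher in both TAF10KO libraries, 1 of 30, where 7.08% of all genes were. Itgam had 38.4 and 64.0 reads in TAF10KO libraries, against 22.4 to 28.6 in TAF10HET libraries and 25.9 and 33.04 in WT libraries. Spic and Timd4 overlapped on this scale, Spic with 5.11 and 1.96 reads in TAF10KO libraries, against 4.53 to 7.73 in TAF10HET libraries and 8.77 and 5.51 in WT libraries.

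**Figure D3:**
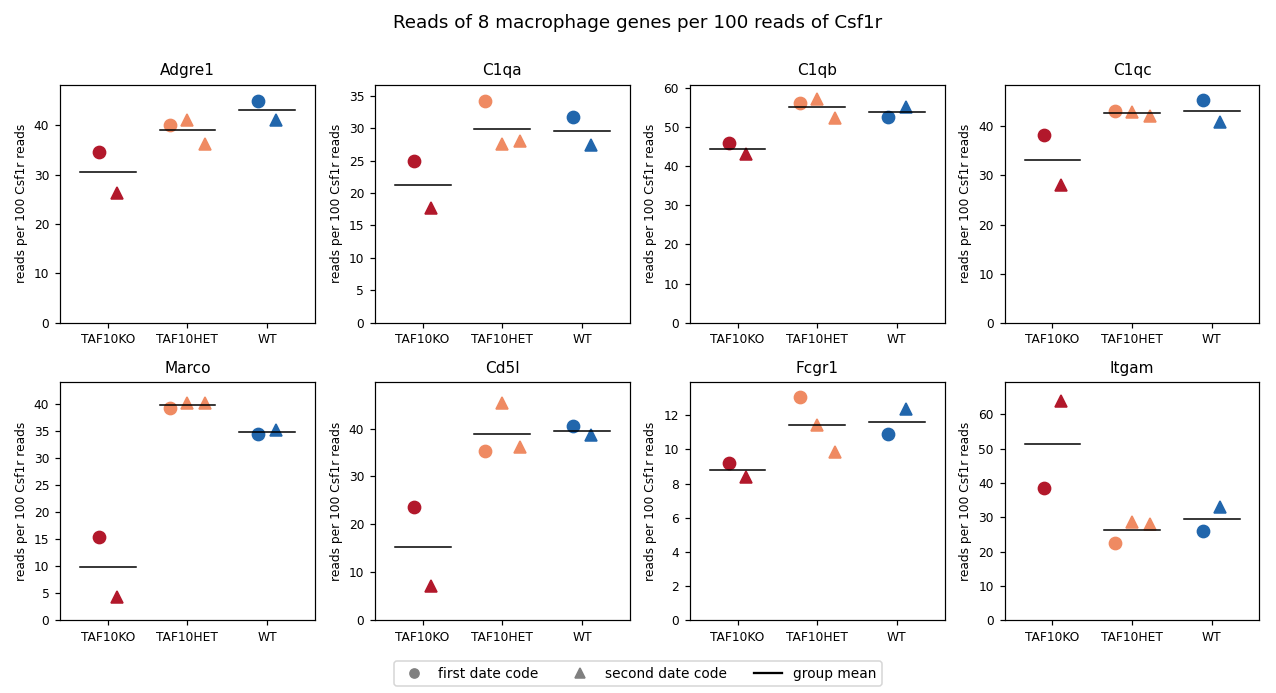
Reads of 8 macrophage genes per 100 reads of Csf1r in each library, by genotype, with the group mean as a line; circles stand for the first date code and triangles for the second. In all panels but that of Itgam, both TAF10KO libraries lie below the 5 others, most widely for Marco at 15.3 and 4.35.

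More of these genes were called between the date codes than between the genotypes. Of the 31 genes, 16 fell and 1 rose in the second date code against the first, where 22.7% of all genes were called lower and 18.7% higher. With upper-quartile scaling the calls over all genes were 4056 lower and 1832 higher, against 3580 lower and 2956 higher with TMM scaling, and 17 of the macrophage genes were lower and 1 higher. The median log2 difference over the 31 genes was -0.54, beside 0.02 over all genes. Axl had the largest difference. It stood at 13.4, 18.8, 15.3 and 13.1 CPM in the second date code libraries (TAF10KO 2, TAF10HET 2 and 3, WT 2), against 45.8, 58.8 and 49.7 CPM in the first (TAF10KO 1, TAF10HET 1, WT 1). All 4 libraries of the second date code were below all 3 of the first, and Axl fell by 1.82 on the log2 scale (SE 0.091, adjusted p = 0.000124).

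Among the genes called, Mrc1 had the next largest fall, at 23.3, 31.4, 25.7 and 26.5 CPM in the second date code libraries, against 55.0, 63.3 and 65.1 CPM in the first, a fall of log2 -1.22 (SE 0.0848, adjusted p = 0.0002). Vcam1 fell by 0.91 (adjusted p = 0.000254), Maf fell by 0.91 (adjusted p = 0.000481) and C1qa fell by 0.66 (adjusted p = 0.00249), all on the log2 scale. The others that fell were Csf1r, Adgre1, Cx3cr1, C1qb, C1qc, Fcna, Mertk, Fcgr1, Ctss, Lgmn and Spic, with log2 differences from -1.16 for Spic to -0.34 for Csf1r. Lyz2 was the gene that rose, by a log2 difference of 0.47 (adjusted p = 0.00979). In 9 of the 31 genes every library of the second date code was below every library of the first, where 23.6% of all genes were, a share near that of these genes. Marco differed by -0.78 (adjusted p = 0.135) and Itgam by 0.14 (adjusted p = 0.366), and neither was called. Within genotypes, the median over the 31 genes was -0.74 in TAF10KO, -0.23 in TAF10HET and -0.55 in WT livers, with 6, 8 and 3 genes higher in the second date code; whether these differ between genotypes was not tested.

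**Figure D4:**
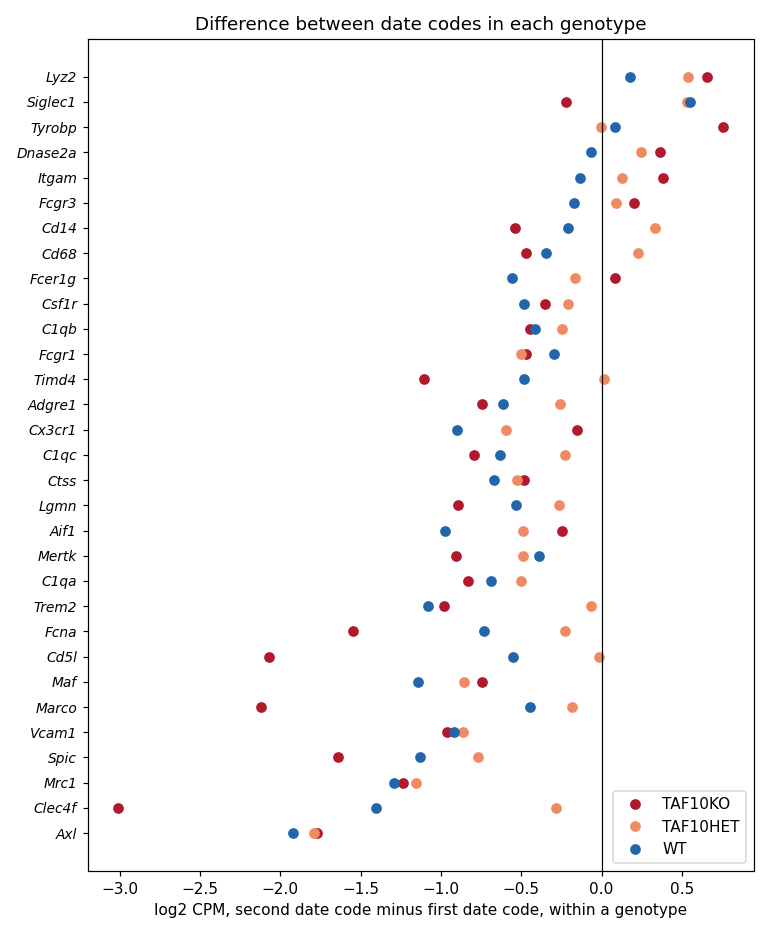
Difference in log2 CPM of the second from the first date code within each genotype for the 31 tested genes, ordered by their mean; each genotype has 1 library on the first date code, and TAF10HET has the mean of 2 on the second. Axl (-1.77 in TAF10KO, -1.79 in TAF10HET and -1.92 in WT) and Mrc1 are close across genotypes, while Marco is at -2.12 in TAF10KO, -0.18 in TAF10HET and -0.45 in WT.

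Markers of stromal cells moved with the date code as well. Over all genes 22.7% were called lower and 18.7% higher in the second date code. All 8 mesenchymal markers were called lower in the second date code, with a median log2 difference of -2.65, and their summed level was 191.6 to 344.7 CPM in the second, against 1399 to 2543 CPM in the first. Of the endothelial markers, 9 of 10 were called lower, with sums of 262 to 337.1 CPM in the second date code and 476.8 to 664.7 CPM in the first. Of the hepatocyte markers, 8 of 10 were called lower, with a median log2 difference of -0.45. Erythroid markers went the other way, 9 of 10 called higher, and 4 of 12 neutrophil and monocyte markers were called higher, as Lyz2 was. Axl, Mrc1, Vcam1 and Maf are also made by stromal or endothelial cells, and the part of other cells in the date differences of these genes and of Lyz2 was not tested. Of the 17 date calls, 8 held in all 14 alternatives (Axl, Mrc1, Vcam1, Maf, C1qa, Mertk, Ctss and Lyz2) and 9 were lost in at least 1, each of them without WT replicate 1 and without WT replicate 2. The number of lower calls was 7 without either WT replicate 1 or WT replicate 2.

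**Figure D5:**
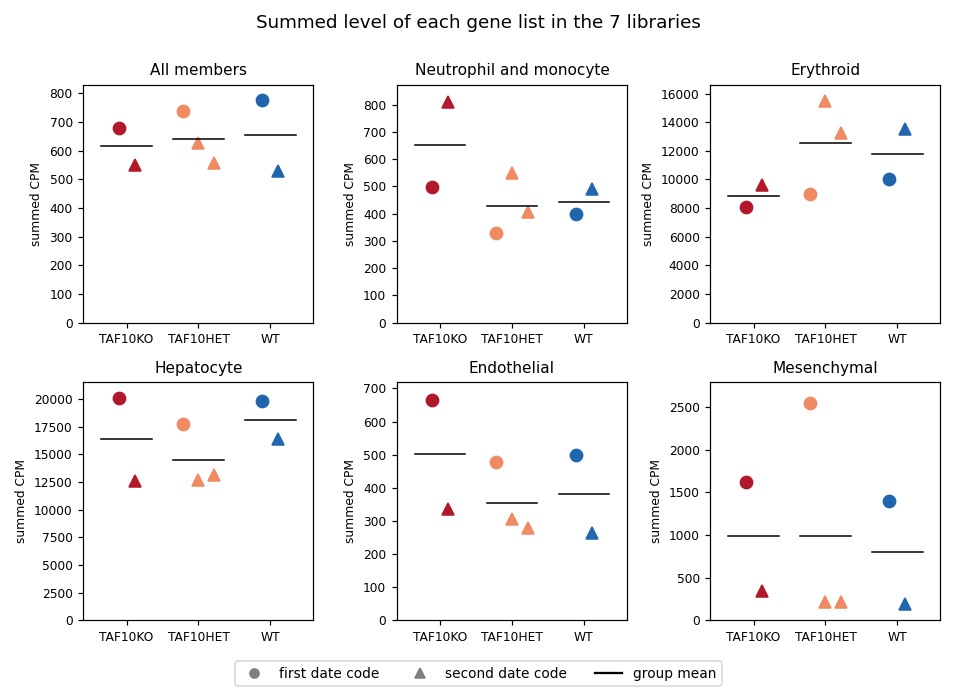
Summed CPM of the 33 macrophage genes and of 5 marker lists in the 7 libraries, by genotype, with the group mean as a line; circles stand for the first date code and triangles for the second. The macrophage sum overlaps between genotypes, neutrophil and monocyte markers are highest in TAF10KO replicate 2 at 808.5 CPM, and mesenchymal markers separate by date code.

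Other genes of the macrophage programme, from 4 lists of 52 genes of which 50 were tested, gave 0 calls in either direction between TAF10KO and WT with edgeR. Over all genes 0.481% were called higher and 0.127% lower. At an unadjusted p under 0.05, 10 were higher and 4 lower, where 17.9% of all genes passed in either direction. DESeq2 called 2 higher and 3 lower, where it called 2.29% of all genes higher and 1.96% lower. Medians of the log2 difference were 0.26 over 11 macrophage transcription and growth factor genes, 0.08 over 11 partners at the erythroblast island, -0.05 over 10 genes of haem and iron recycling and 0.16 over 18 further macrophage genes. The genes of smallest p in each were Nr1h3, the integrin chain Itgb1, the haemoglobin-binding plasma protein Hp and the lysosomal protein Laptm5, the last with a log2 difference of 0.50 (adjusted p = 0.053). The most abundant were Zeb2 (log2 difference 0.17), Itgb1 (0.30), Blvrb (-0.17) and Laptm5.

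Against TAF10HET, 2 of the 50 genes fell and 2 rose, where 0.456% of all genes were called lower and 1.15% higher. Nr1h3, the liver X receptor that Kupffer cells need, had 7.60 and 6.40 CPM in the TAF10KO libraries, against 13.2, 11.9 and 11.55 CPM in the TAF10HET libraries and 13.1 and 10.01 CPM in the WT libraries, and it fell by 0.85 on the log2 scale against TAF10HET (adjusted p = 0.0227). Cfp, the complement factor properdin, had 11.2 and 8.195 CPM in the TAF10KO libraries, against 18.0, 14.3 and 15.9 CPM in the TAF10HET libraries and 15.7 and 13.3 CPM in the WT libraries (log2 difference from TAF10HET -0.79, adjusted p = 0.0250). Both TAF10KO libraries were below all 5 others in each of these genes, as they were in 7.18% of all genes. Cebpb, a myeloid transcription factor, had 5.51 and 8.13 CPM in the TAF10KO libraries, against 2.895 to 3.46 CPM in the TAF10HET libraries and 3.39 and 3.34 CPM in the WT libraries (log2 difference from TAF10HET 1.16, adjusted p = 0.0317). Hp rose by a log2 difference of 0.64 (adjusted p = 0.0460). All 4 calls were lost without the date block, in a fit of the groups compared alone, and without either WT library, TAF10HET replicate 2 or TAF10HET replicate 3, with adjusted p up to 0.642 for Nr1h3, 0.73 for Cfp, 0.624 for Cebpb and 0.93 for Hp. Those of Cebpb and Hp were also lost without TAF10KO replicate 2, and that of Hp with median-of-ratios scaling and without robust moderation.

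Markers of the other cells of the liver are given by list for TAF10KO against WT. In this comparison 0.481% of all genes were called higher and 0.127% lower. Of the erythroid markers, 10 of 10 were below 0, and 1, the transferrin receptor Tfrc, was called lower (log2 difference -0.84, adjusted p = 0.0438). The median log2 difference was -0.27 over erythroid markers, -0.24 over 10 hepatocyte markers with 0 called, 0.40 over 10 endothelial markers with 2 called higher (Flt1 and Pecam1), 0.55 over 8 mesenchymal markers with 0 called, and 0.23 over 8 megakaryocyte markers with 0 called. Of the mast cell markers 2 of 6 were tested, and of the lymphoid markers 4 of 7, with 0 called. The smallest p in each list was that of Tfrc, Trf (log2 difference 0.53), Flt1 (1.18), Col1a1 (0.66), Mpo, Itga2b (0.44), Kit (0.16) and Il7r (0.48). The most abundant marker was Slc4a1 (-0.29), Afp (-0.10), Stab1 (0.21), Col3a1 (0.58), S100a9 (0.37), Itga2b, Kit and Cd79b (0.03), in the order erythroid, hepatocyte, endothelial, mesenchymal, neutrophil, megakaryocyte, mast cell and lymphoid. The calls of Tfrc, Flt1 and Pecam1 were lost without the date block, without either WT library and without TAF10HET replicate 3, and those of Tfrc and Pecam1 also without TAF10HET replicate 2 and without robust moderation. How far these cells contribute to the levels of the macrophage genes was not tested.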

How the data were processed

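RNA-seq reads of 7 fetal livers were aligned with TopHat2 2.0.8 to mm10, per the submitters' processing notes, which also name DESeq2. The authors deposited raw counts per Ensembl gene, 1 table per library. No source used here gives the counting program, the annotation or the strand setting. Reads in no gene made up 6.81 to 10.12% of the table totals, ambiguous reads 3.98 to 5.94% and reads mapped to several places 14.07 to 22.25%. These lines were left out. Symbols and positions come from GENCODE M21, which matched 37693 of 39017 identifiers.

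From the counts, edgeR 4.0.16 (R 4.3.3) fitted all 7 libraries with genotype and date code after filterByExpr and TMM scaling, with a robust quasi-likelihood test and Benjamini-Hochberg adjustment at 0.05. Log2 CPM uses a prior count of 2. The SE is the absolute log2 difference divided by the square root of F. DESeq2 1.42.0, other scalings and filters, a fit without the date code, and fits without each library were alternatives. The code was tested on simulated data.

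The date code served as replicate block: 8 pairs of libraries of different groups with the same code had correlated deviations from their group means (r 0.40 to 0.74). For 8 pairs with different codes r was -0.74 to -0.40, but these values were fixed by the same-code pairs. In the knockout and WT groups, replicates deviate from the group mean by equal and opposite amounts. Each r between different codes is thus a same-code r with its sign reversed, and is no separate evidence for the block. The first principal component, with 63.2% of the variance, separated the codes, and the biological coefficient of variation was 13.4% with the code and 33.9% without. No library was a copy of another. Sample names give each library as a separate liver, and p-values measure the spread between these 7. Counting error alone does not cover that spread.

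The genes and lists were chosen with earlier results of these data known. Values by library are given for 19 genes by a rule (called in any comparison, among the 3 smallest p of a genotype comparison, or the most abundant of a role group) and for others chosen after their values were seen, among them Marco, Cd5l, Timd4, Clec4f and Dnase2a.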

Additional observations from a re-analysis of the deposited data

Results flagged for a closer look

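Several values pointed in opposite directions on the 2 date codes, with 1 to 2 livers on a side. The difference between date codes was not tested for any of them. By the sign of the mean difference, 7 of the 31 genes did so in TAF10KO against WT, 7 in TAF10KO against TAF10HET and 20 in TAF10HET against WT. Over all genes, 30.3% were lower and 34.3% higher on both date codes in TAF10KO against WT. The shares were 24.7% and 27.1% in TAF10KO against TAF10HET, and 24.8% and 26.5% in TAF10HET against WT. The remaining genes kept no common sign. The genes listed here are those of the 19 named by rule that had opposite signs and in which, in addition, every pair of libraries on a date code pointed the same way. Each value is the log2 CPM difference on the second date code minus that on the first. For TAF10HET against WT, the median over the 31 genes differed by 0.29 (above 0 on the second date code, below 0 on the first). The heterozygous allele type also changed with the date code. Genes listed in TAF10HET against WT were Csf1r (0.27), Adgre1 (0.35), Cx3cr1 (0.30), C1qc (0.41), Fcna (0.51), Lgmn (0.27) and Maf (0.29). For TAF10KO against WT they were Csf1r (0.13), Cx3cr1 (0.75), Axl (0.15), Tyrobp (0.67) and Maf (0.40). For TAF10KO against TAF10HET they were Mertk (-0.42) and Tyrobp (0.76).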

How the results depend on the processing

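Call counts depended on the processing, and so did the direction of some genes that were not called. In TAF10KO against WT, for example, the log2 difference over the alternatives ran from -0.29 to 0.45 for Siglec1. For Tyrobp it ran from -0.39 to 0.37. Of the macrophage genes, TAF10KO against WT gave 1 higher and 2 lower with DESeq2 (2.29% of all genes higher and 1.96% lower). It gave 3 and 6 with no filter (3.66% and 1.43%), and 1 and 3 with the groups compared alone (2.12% and 1.41%). TAF10KO against TAF10HET gave 2 higher and 7 lower with DESeq2 (2.58% and 2.08% of all genes), and 3 and 11 with no filter (3.49% and 1.96%). It gave 1 and 2 with a filter at 5 CPM (1.58% and 0.704%), and 0 and 0 with the groups compared alone (0.134% and 0.0318%). With no replicate block it gave 0 higher and 0 lower, and a median of -0.23. Over all genes DESeq2 called 307 higher and 263 lower for TAF10KO against WT. Leaving out each library in turn gave, for TAF10KO against WT, 0 to 2 higher, 0 to 10 lower and a median of -0.39 to -0.17, and for TAF10KO against TAF10HET 0 to 3 higher and 0 to 11 lower. The median for TAF10HET against WT was then 0.0211 to 0.23. For the second against the first date code there were 1 to 2 higher and 7 to 18 lower, with a median of -0.67 to -0.44. No sign turned among the calls named. The causes were not tested. A fit without the date block gives no date comparison. With 2 TAF10KO and 2 WT livers, dropping 1 leaves a lone library that is assumed to vary like the others. Depth limits Cd163, Vsig4, Cd14 and Clec4f, read in few counts.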
